A study of Mus musculus with 6 samples.

Results

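The 10 genes described here encode the working parts of the osteoclast, the cell that resorbs bone: the secreted enzymes *Acp5* and *Ctsk*, the acid-secretion genes *Tcirg1*, *Atp6v0d2*, *Clcn7* and *Ostm1*, the cell fusion genes *Dcstamp* and *Ocstamp*, and the surface receptors *Oscar* and *Itgb3*. They were chosen by symbol and make up 10 of the 55401 gene identifiers in the count files, and all 10 passed the filter on low counts. The RNA came from whole tibias of 6 male mice, all 8 weeks old, with 1 library of polyadenylated RNA per mouse. The 3 Atrx-cKO mice (Osterix-Cre; Atrxf/y) carried a floxed *Atrx* allele and a Tet-off *Osterix-Cre* transgene, which deletes *Atrx* in preosteoblasts and their descendants and was held silent with doxycycline until 3 weeks of age. The 3 control mice (Atrxf/y) carried the floxed allele without the transgene, so that presence of the transgene and loss of *Atrx* cannot be told apart in these libraries. Levels are given as CPM, the count of a gene scaled to the library's total on genes after TMM normalization between libraries.

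Osteoclasts are giant cells that form when precursors of the monocyte and macrophage lineage fuse under the signals M-CSF and RANKL. An active osteoclast seals itself to bone through integrins, pumps protons into the sealed space with a vacuolar ATPase (V-ATPase), balances the charge with a chloride exchanger, and releases enzymes that digest the collagen matrix once the acid has dissolved the mineral. Osteoclasts come from blood precursors and not from the osteoblast lineage in which *Osterix-Cre* is active. In RNA from a whole bone, fewer osteoclasts, less RNA per osteoclast and a change in other cells that express these genes cannot be told apart.

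Libraries held 50977777 to 70571655 counts on genes, and an allowance of 3 counts, which covers counting error only, limits a gene with 0 counts to 0.045 to 0.063 CPM depending on the library. *Atrx* itself had 174.5, 166.5 and 165.4 CPM in control and 152.7, 166.2 and 171.1 CPM in Atrx-cKO replicates 1, 2 and 3. These ranges overlapped, and the log2 fold change was -0.047 ± 0.080 (SE, edgeR adjusted p = 0.992). The files hold no counts by exon, so the deletion in osteoblast-lineage cells was not checked here. Osteoblast and osteocyte markers were detected in every library. Control replicate 3 stood apart in skeletal muscle RNA, with a sum over 10 muscle markers of 13366 CPM against 785 to 2732 CPM in the other 5 libraries, and the log2 fold changes of the 10 genes and the medians of most gene lists are therefore also given without it. Nothing states how the mice relate to each other, and the p-values measure only the spread between these libraries.

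The question for these genes was whether their RNA differed between Atrx-cKO and control tibias. Of the 10 genes, 9 had a lower mean CPM in Atrx-cKO, with differences from -28.8% for *Dcstamp* to -0.595% for *Ostm1*, and *Itgb3* had a mean 10.6% higher. None of these differences passed edgeR's quasi-likelihood test at a Benjamini-Hochberg adjusted p of 0.05 (0 of 10 genes, against 0.0145% of all 20636 genes tested), and none passed in DESeq2 (0 of 10, against 0.157% of the 23588 genes it gave an adjusted p). At an unadjusted p under 0.05, 1 of the 10 genes (*Oscar*) was lower in edgeR, where 2.05% of all tested genes were. In DESeq2, 4 (*Oscar*, *Ctsk*, *Acp5* and *Dcstamp*) were lower, against 1.69% of the 36262 genes it gave a p-value. Those 36262 genes include weakly expressed ones that edgeR's filter removed, so the 2 shares have unlike bases. None of the 10 was higher at that level in edgeR, where 1.59% of tested genes were. The median log2 fold change of the 10 genes was -0.30, with 9 of them below 0. Over all tested genes the median was 0.0050, the quartiles were -0.12 and 0.12, and 48.8% lay below 0. Without control replicate 3 the median of the 10 genes was -0.17. The list was chosen with earlier results of these data known, so its median and counts are a description.

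**Figure D1:**
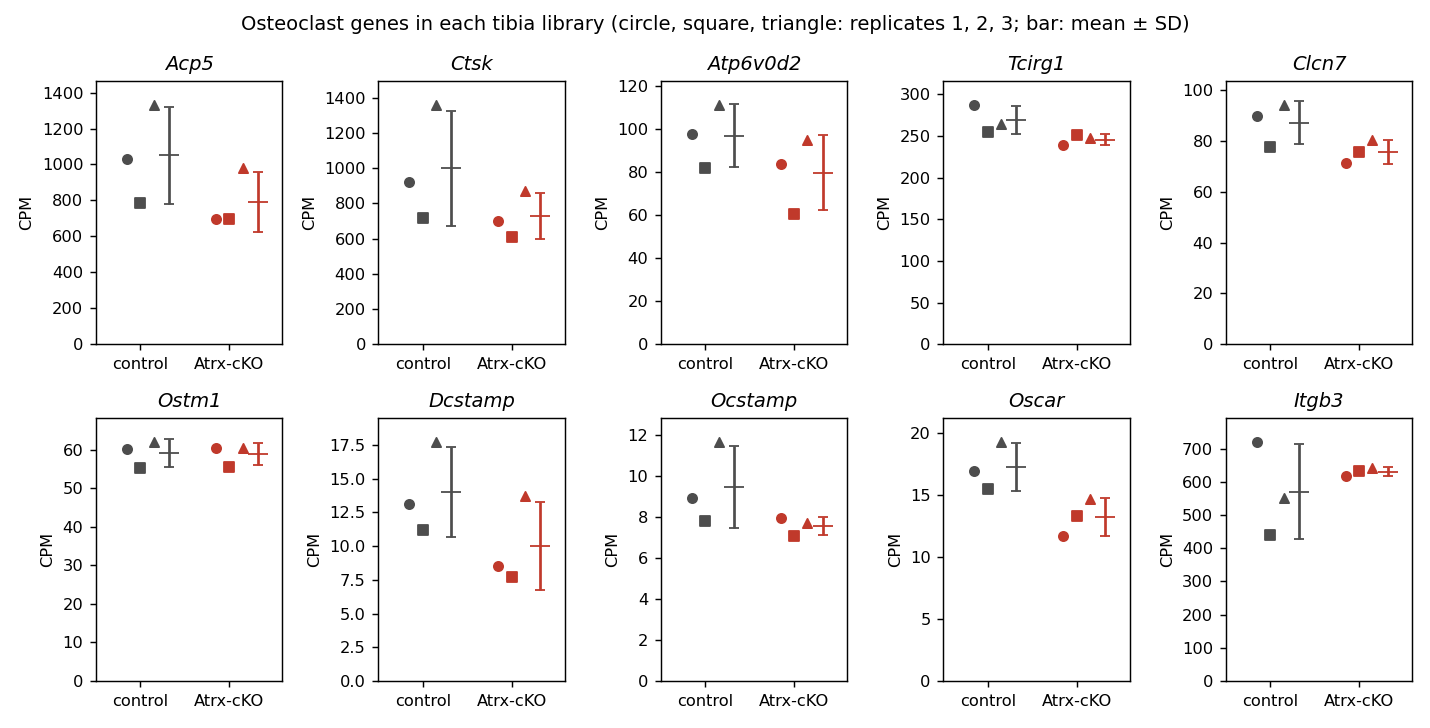
CPM of the 10 genes in each library, with a y axis from 0 in every panel, circles, squares and triangles for replicates 1, 2 and 3, and a bar for the mean ± SD of 3 libraries. The control and Atrx-cKO points overlap in 8 panels, while for *Tcirg1* and *Oscar* all Atrx-cKO points lie below all control points.

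*Acp5* (ENSMUSG00000001348, chr9:22126727-22135711, minus strand of GRCm38) encodes tartrate-resistant acid phosphatase, the enzyme stained to count osteoclasts. It had 1031, 788 and 1331 CPM in control replicates 1, 2 and 3 and 696, 694 and 982 CPM in Atrx-cKO replicates 1, 2 and 3. The ranges overlapped, because Atrx-cKO replicate 3 lay above control replicate 2. The group means were 1050 ± 272 CPM (SD, n = 3) in control and 791 ± 166 CPM (SD, n = 3) in Atrx-cKO, and the fitted log2 fold change was -0.41 ± 0.22 (SE, edgeR adjusted p = 0.992). *Ctsk* (ENSMUSG00000028111, chr3:95499256-95509362, plus strand) encodes cathepsin K, the protease that cuts type I collagen in the resorption space. Control replicates 1, 2 and 3 held 922, 719 and 1360 CPM of *Ctsk*, and Atrx-cKO replicates 1, 2 and 3 held 702, 612 and 868 CPM. Its 6 libraries stood in the same order as for *Acp5*, with control replicate 3 highest and Atrx-cKO replicate 2 lowest. The means of *Ctsk* were 1000 ± 328 CPM (SD, n = 3) in control and 727 ± 130 CPM (SD, n = 3) in Atrx-cKO, and the log2 fold change was -0.46 ± 0.24 (SE, edgeR adjusted p = 0.992).

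Both enzyme differences leaned on control replicate 3. Without it the log2 fold change was -0.22 for *Acp5* and -0.19 for *Ctsk*. Without control replicate 2 the values were -0.58 and -0.65, and without Atrx-cKO replicate 3 they were -0.60 and -0.61. The ratio of *Ctsk* to *Acp5*, in counts per kilobase of exon, was 1.20, 1.23 and 1.37 in control and 1.35, 1.18 and 1.19 in Atrx-cKO replicates 1, 2 and 3. The groups overlapped, the mean log2 ratio in Atrx-cKO minus that in control was -0.028 (p = 0.5, exact two-sided permutation test), and with 3 libraries against 3 this test cannot go below 0.1. *Acp5* is crossed on the opposite strand by *6530413G14Rik*, whose exons cover 6.75% of the exonic length of *Acp5*. The counts of *6530413G14Rik* were between 0.324 and 0.339 of those of *Acp5* in all 6 libraries, and its log2 fold change was -0.42 ± 0.22 (SE, edgeR adjusted p = 0.992). The labels call the libraries strand specific, but no source used here states whether counting used strand, so reads of this pair may not be separated.

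The promoter sequences of *Ctsk*, *Acp5* and *Oscar* are shown because *Ctsk* and *Acp5* ranked the 6 libraries alike and *Oscar*, described below, had the lowest unadjusted p. RefSeq promoters on GRCm38.p6 were matched for 6 of the 10 genes. *Acp5* has 3 such windows in RefSeq, and the one furthest upstream is shown, which lies nearest to the start of the gene given above. Which of the 3 starts was used in these tibias was not tested. Each line gives the 250 bases before the annotated start, 5′ to 3′ on the strand of the gene, with capitals for the letters of 5 motifs linked to osteoclast factors, searched on both strands: GAGGAA (core of PU.1 sites), GGAAA (core of NFAT sites), TGANTCA (AP-1), and the E-boxes CACGTG and CATGTG bound by MITF and its relatives. A GAGGAA followed by A also holds GGAAA.
Ctsk (chr3:95498960-95499209, plus strand): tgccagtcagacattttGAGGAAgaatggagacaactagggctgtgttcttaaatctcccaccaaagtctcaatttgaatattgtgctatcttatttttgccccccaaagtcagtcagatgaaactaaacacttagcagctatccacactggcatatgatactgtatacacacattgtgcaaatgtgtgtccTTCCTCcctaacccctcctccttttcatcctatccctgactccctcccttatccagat
Acp5 (chr9:22135747-22135996, minus strand): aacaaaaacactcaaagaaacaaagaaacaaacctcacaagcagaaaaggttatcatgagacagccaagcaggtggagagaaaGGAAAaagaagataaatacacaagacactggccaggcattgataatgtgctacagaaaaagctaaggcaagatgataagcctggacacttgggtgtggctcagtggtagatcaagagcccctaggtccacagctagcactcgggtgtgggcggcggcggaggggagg
Oscar (chr7:3616158-3616407, minus strand): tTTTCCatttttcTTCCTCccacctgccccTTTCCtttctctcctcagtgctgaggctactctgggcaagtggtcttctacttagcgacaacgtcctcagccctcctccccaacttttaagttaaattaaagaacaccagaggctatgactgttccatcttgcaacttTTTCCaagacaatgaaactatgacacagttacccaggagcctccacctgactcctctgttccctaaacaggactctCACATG

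The window of *Oscar* held 3 copies of GGAAA, 1 of GAGGAA and 1 of CATGTG, all on the strand opposite to the gene, so that the line shows their reverse complements. That of *Ctsk* held 2 copies of GAGGAA, at bases 18 to 23 and 193 to 198 of the line, and the window of *Acp5* that is shown held 1 GGAAA. Of its windows not shown, the one at chr9:22131866-22132115 held 1 GGAAA and the one at chr9:22130599-22130848 held 2 GGAAA and 1 CATGTG. Among all 32851 promoter windows of this length, the PU.1 core was in 23.3%, the NFAT core in 55.6%, the AP-1 motif in 6.75%, CATGTG in 12.3% and the other E-box in 6.02%. These matches describe the letters of the windows and were not tested against the expression values.

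*Tcirg1* (ENSMUSG00000001750, chr19:3896050-3907133, minus strand) encodes a3, the isoform of the membrane-embedded V0 a subunit that carries the proton pump to the ruffled border. It had 287, 255 and 264 CPM in control and 239, 251 and 248 CPM in Atrx-cKO replicates 1, 2 and 3. All Atrx-cKO libraries lay below all control libraries, a separation found in 2 of the 10 genes and in 4.01% of all tested genes (the opposite one was found in 0 of the 10 and in 4.3% of all), and the nearest libraries were 251 and 255 CPM. The means were 269 ± 16.6 CPM (SD, n = 3) in control and 246 ± 6.24 CPM (SD, n = 3) in Atrx-cKO, with a log2 fold change of -0.13 ± 0.084 (SE, edgeR adjusted p = 0.992). The value for *Tcirg1* was -0.079 without control replicate 1 and -0.155 without control replicate 3. *Atp6v0d2* (ENSMUSG00000028238, chr4:19876841-19922605, minus strand) encodes d2, a V0 d subunit enriched in osteoclasts that is also needed when their precursors fuse. Its level was 97.5, 81.8 and 111 CPM in control and 83.8, 60.6 and 94.5 CPM in Atrx-cKO replicates 1, 2 and 3. The groups overlapped, and the means of 96.8 ± 14.6 CPM (SD, n = 3) and 79.6 ± 17.4 CPM (SD, n = 3) gave a log2 fold change of -0.28 ± 0.18 (SE, edgeR adjusted p = 0.992), which was -0.126 when Atrx-cKO replicate 2 was left out, -0.425 for Atrx-cKO replicate 3 and -0.185 for control replicate 3.

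*Clcn7* (ENSMUSG00000036636, chr17:25133391-25162104, plus strand) encodes the lysosomal chloride-proton exchanger that accompanies the pump. Its control libraries had 90.0, 77.6 and 94.2 CPM and its Atrx-cKO libraries 71.2, 75.6 and 80.6 CPM, with an overlap only between control replicate 2 and Atrx-cKO replicate 3. For *Clcn7* the log2 fold change was -0.20 ± 0.095 (SE, edgeR adjusted p = 0.992), or -0.16 without control replicate 3. *Ostm1* (ENSMUSG00000038280, chr10:42583822-42702459, plus strand) encodes the partner protein that stabilizes the exchanger. It had 60.2, 55.2 and 62.1 CPM in control and 60.5, 55.5 and 60.4 CPM in Atrx-cKO, the narrowest relative spread of the 10 genes. Its log2 fold change was -0.0080 ± 0.078 (SE, edgeR adjusted p = 0.997) and took either sign when a library was left out (0.014 without control replicate 3). An antisense gene, *Gm15200*, overlaps 5.69% of the exonic length of *Ostm1* and had 243 to 373 counts per library.

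The a3 and d2 isoforms have relatives that other cells use, so their shares within a library were also compared. *Atp6v0a1* and *Atp6v0a2* encode the a1 and a2 isoforms and *Atp6v0d1* the d1 isoform. Per kilobase of exon, *Tcirg1* stood at 58.4 ± 3.61 CPM (SD, n = 3) in control, against 14.7 ± 0.601 for *Atp6v0a1* and 15.0 ± 0.784 for *Atp6v0a2*. It made up 67.7%, 64.5% and 66.5% of the sum of these 3 genes in control and 62.7%, 64.9% and 65.3% in Atrx-cKO replicates 1, 2 and 3. These shares overlapped, and the mean log2 ratio in Atrx-cKO minus that in control was -0.12 (p = 0.3, exact two-sided permutation test). *Atp6v0d2* and *Atp6v0d1* had similar levels, 35.6 ± 5.39 and 40.4 ± 0.421 CPM per kilobase (SD, n = 3) in control. The share of *Atp6v0d2* in their sum was 46.9%, 43.0% and 50.2% in control and 42.2%, 35.8% and 48.5% in Atrx-cKO, again with overlap. The mean log2 ratio of *Atp6v0d2* to *Atp6v0d1* in Atrx-cKO minus that in control was -0.27 (p = 0.4, exact two-sided permutation test).

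**Figure D2:**
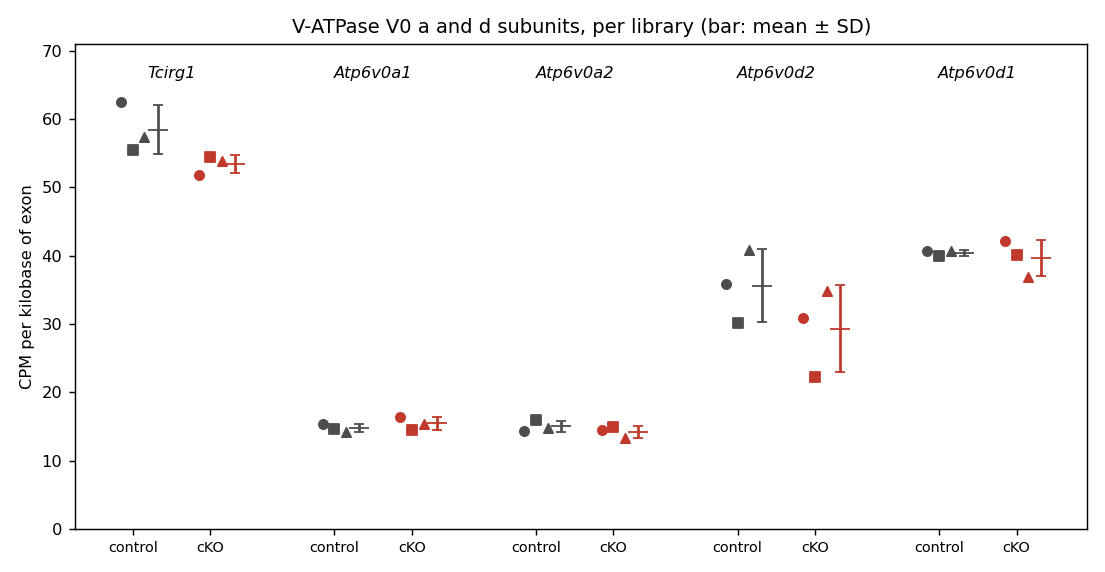
CPM per kilobase of exon for the V0 a subunits *Tcirg1*, *Atp6v0a1* and *Atp6v0a2* and the V0 d subunits *Atp6v0d2* and *Atp6v0d1*, with 1 point per library (circle, square and triangle for replicates 1, 2 and 3) and a bar for the mean ± SD of 3 libraries. *Tcirg1* stands far above the other a subunits in both groups, and the points of *Atp6v0d2* spread more widely than those of *Atp6v0d1*.

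*Dcstamp* (ENSMUSG00000022303, chr15:39745930-39760938, plus strand) and *Ocstamp* (ENSMUSG00000027670, chr2:165393760-165400405, minus strand) encode membrane proteins that osteoclast precursors need in order to fuse. Both were weakly expressed. *Dcstamp* had 13.1, 11.2 and 17.8 CPM in control and 8.53, 7.71 and 13.7 CPM in Atrx-cKO replicates 1, 2 and 3, from 440 to 845 counts per library. The highest Atrx-cKO library lay above 2 of the 3 controls. Its log2 fold change, -0.49 ± 0.26 (SE, edgeR adjusted p = 0.992), was the furthest below 0 among the 10 genes. That value was -0.79 when Atrx-cKO replicate 3 was left out and -0.30 when control replicate 3 was. *Ocstamp* had 8.94, 7.79 and 11.7 CPM in control and 7.95, 7.08 and 7.69 CPM in Atrx-cKO. Control replicate 2 lay within the Atrx-cKO range, and the means of 9.47 ± 1.998 CPM (SD, n = 3) and 7.57 ± 0.450 CPM (SD, n = 3) gave a log2 fold change of -0.32 ± 0.17 (SE, edgeR adjusted p = 0.992), or -0.16 without control replicate 3.

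*Oscar* (ENSMUSG00000054594, chr7:3609813-3616157, minus strand) encodes an immunoglobulin-like receptor that binds collagen and signals through the adaptor FcRγ to promote osteoclast differentiation. It had 16.9, 15.5 and 19.3 CPM in control and 11.7, 13.3 and 14.7 CPM in Atrx-cKO replicates 1, 2 and 3. Every Atrx-cKO library was below every control library. The means were 17.2 ± 1.91 CPM (SD, n = 3) and 13.2 ± 1.51 CPM (SD, n = 3), a log2 fold change of -0.38 ± 0.13 (SE). In edgeR the unadjusted p was 0.0197, the lowest of the 10 genes, and the adjusted p was 0.992, while DESeq2 gave 0.0115 and an adjusted p of 0.814. Without control replicate 3 the log2 fold change was -0.31, and over all fits that left out 1 library it ran from -0.47 to -0.30 in edgeR.

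*Itgb3* (ENSMUSG00000020689, chr11:104608000-104670476, plus strand) encodes the integrin β3 chain, which pairs with αv on osteoclasts and with αIIb (*Itga2b*) on megakaryocytes and platelets. It was the only one of the 10 genes with a higher mean in Atrx-cKO. *Itgb3* had 722, 440 and 552 CPM in control and 619, 633 and 644 CPM in Atrx-cKO replicates 1, 2 and 3, so the Atrx-cKO libraries lay close together inside the wide control range. The log2 fold change was 0.14 ± 0.17 (SE, edgeR adjusted p = 0.992), with 0.35 without control replicate 1, -0.015 without control replicate 2 and 0.11 without control replicate 3. *Itga2b* showed the same spread, with 390, 197 and 203 CPM in control and 325, 325 and 302 CPM in Atrx-cKO. *Itgav*, which encodes αv, had 151, 180 and 220 CPM in control and 163, 146 and 179 CPM in Atrx-cKO. Its log2 fold change was -0.17 ± 0.15 (SE, edgeR adjusted p = 0.992). The 8 megakaryocyte and platelet markers summed to 1800, 960 and 954 CPM in control and to 1509 to 1600 CPM in Atrx-cKO, with 1 of them, *Gp1bb*, under 1 CPM in every library. Their part in the value of *Itgb3* was not tested.

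**Figure D3:**
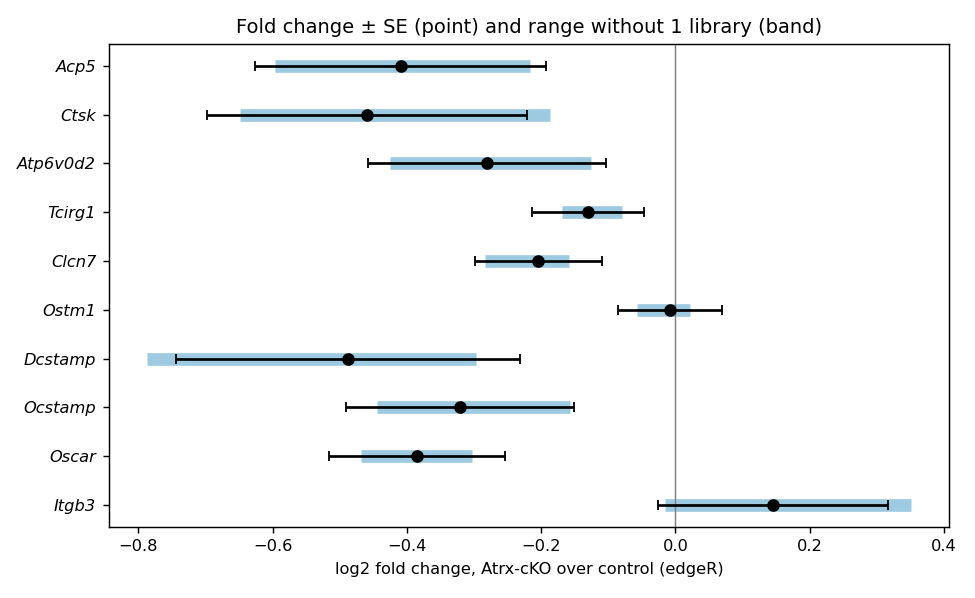
Log2 fold change of Atrx-cKO over control for the 10 genes (x axis), with the standard error as a bar around each point and a band for the range over fits that each left out 1 of the 6 libraries. The bands of *Ostm1* and *Itgb3* cross 0, and that of *Dcstamp* reaches from -0.79 to -0.30.

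Levels per kilobase of exon placed the 10 genes in a clear order in the controls. *Ctsk* was highest at 662 ± 217 CPM per kilobase (SD, n = 3), followed by *Acp5* at 517 ± 134, and their ranges overlapped. *Itgb3* at 96.8 ± 24.1, *Tcirg1* at 58.4 ± 3.61, *Atp6v0d2* at 35.6 ± 5.39 and *Clcn7* at 16.5 ± 1.63 came next, each apart from its neighbors in all 3 controls. *Oscar* at 9.33 ± 1.04 and *Ostm1* at 8.20 ± 0.493 overlapped. *Dcstamp* at 5.26 ± 1.26 and *Ocstamp* at 2.59 ± 0.546 were lowest.

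Across libraries, 8 of the 10 genes had their highest level in control replicate 3 and 2 (*Tcirg1* and *Itgb3*) in control replicate 1. The lowest level was in Atrx-cKO replicate 2 for 5 genes, in Atrx-cKO replicate 1 for 3 and in control replicate 2 for 2. Measured from each gene's own mean over the 6 libraries, the median of the 10 genes was 0.16, -0.089 and 0.35 (log2) in control replicates 1, 2 and 3 and -0.15, -0.20 and 0.047 in Atrx-cKO replicates 1, 2 and 3. Control replicate 2 was therefore below Atrx-cKO replicate 3, with 9 of the 10 genes under their own mean, where Atrx-cKO replicate 3 had 4. These medians of control replicates 2 and 3 lay further apart than the median log2 fold change of the 10 genes. As a description over 6 libraries, 2 groups included, the Pearson coefficient between each gene and the mean of the other 9 was 0.97 for *Acp5*, 0.95 for *Ctsk*, 0.94 for *Clcn7*, 0.90 for *Dcstamp*, 0.85 for *Atp6v0d2* and *Ocstamp*, 0.82 for *Oscar*, 0.68 for *Ostm1*, 0.61 for *Tcirg1* and 0.088 for *Itgb3*.

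**Figure D4:**
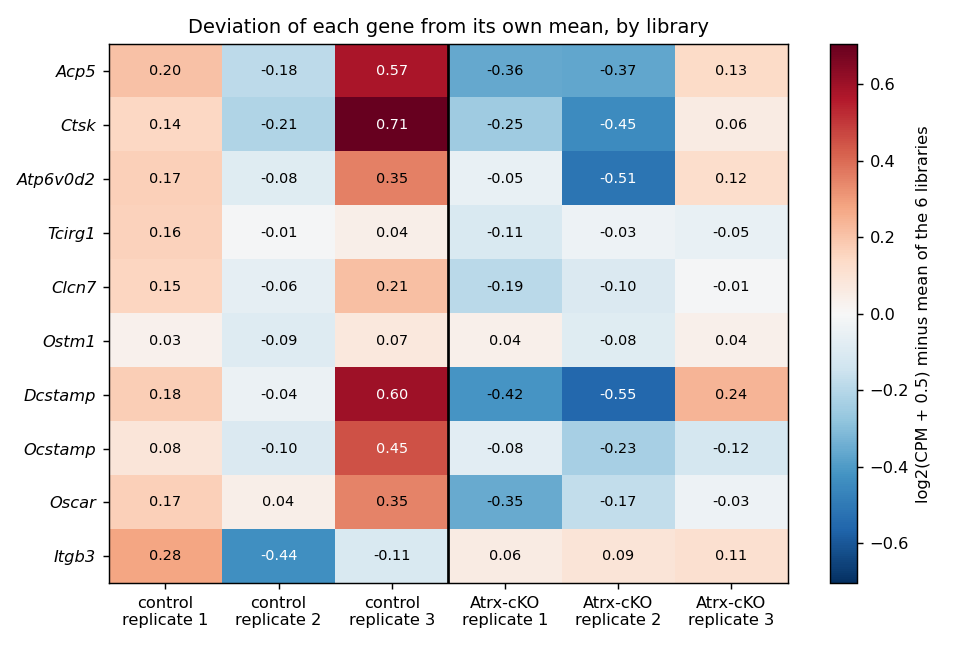
Heat map of log2(CPM + 0.5) minus the mean of the 6 libraries for each of the 10 genes (rows), with control libraries left and Atrx-cKO libraries right of the line. Control replicate 3 is the highest column for 8 genes and control replicate 2 lies below the mean for 9, and *Itgb3* follows another pattern.

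Among tested genes outside the 10, those most like their mean pattern over the 6 libraries were *Gm6855*, *Rnf208*, *Rtn4r*, *Tmem26*, *Rnf11*, *Gpr137b*, *Gm45546*, *Tnk2*, *Mtor* and *Gpr137b-ps*, with Pearson coefficients from 0.97 to 0.998. They were picked as the highest of all tested genes, so the coefficients are a description. *Gm6855*, *Rnf208* and *Gm45546* were under 1 CPM in every library. *Gpr137b* and *Gpr137b-ps* are near copies whose reads may be split between them. *Slc9b2*, a sodium-proton exchanger known from osteoclasts, ranked 14th of all other tested genes (coefficient 0.97), with 64.7, 51.8 and 75.5 CPM in control and 51.6, 42.1 and 59.4 CPM in Atrx-cKO. It was the highest of the other osteoclast genes listed below, which did not all share the pattern. Coefficients of the other resorption genes went down to 0.35 for *Car2*. Those of receptors, adaptors and transcription factors ran from 0.90 for *Jdp2* to -0.83 for *Nfkb1*.

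The other osteoclast resorption genes lay on the same side. Of 13 listed, 13 had a log2 fold change below 0, as did 48.8% of all tested genes. Values ran from -0.68 for *Calcr*, the calcitonin receptor, to -0.057 for *Src*. Their median was -0.22, or -0.205 with 13 of 13 below 0 without control replicate 3. None passed an adjusted p of 0.05 in edgeR, and 3 (*Sh3pxd2a*, *Ckb* and the membrane metalloprotease *Mmp14*) were lower at an unadjusted p under 0.05, a level reached by 2.05% of all tested genes. *Sh3pxd2a*, a scaffold of the podosomes with which osteoclasts attach, had 407, 548 and 602 CPM in control and 370, 401 and 391 CPM in Atrx-cKO, and *Ckb*, the brain-type creatine kinase, had 305, 305 and 414 CPM in control and 243, 243 and 273 CPM in Atrx-cKO. In both, and in no other gene of the 13, every Atrx-cKO library was below every control library, as in 4.01% of all tested genes. The log2 fold changes were -0.42 ± 0.15 (SE) for *Sh3pxd2a* and -0.43 ± 0.14 (SE) for *Ckb*, each with an adjusted p of 0.992 in edgeR. *Calcr* was weakly expressed, at 0.753 to 3.11 CPM. *Mmp14* had 437.2, 590.3 and 625.1 CPM in control and 424.2, 406.5 and 448.9 CPM in Atrx-cKO. Pearson coefficients with the mean pattern described above were 0.444 for *Sh3pxd2a*, 0.459 for *Mmp14* and 0.841 for *Ckb*. Among controls, *Sh3pxd2a* and *Mmp14* were lowest in the library where the osteoblast markers listed below also had their lowest sum. The part of osteoblast-lineage cells in the values of these genes was not tested.

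Receptors, adaptors and transcription factors of osteoclast differentiation were split evenly, with 9 of 18 below 0 and a median log2 fold change of -0.0020, or 13 of 18 and -0.045 without control replicate 3. None passed an adjusted p of 0.05 in edgeR. *Nfatc1*, the transcription factor that switches on the resorption program, had 132, 112 and 120 CPM in control and 102, 99.6 and 98.6 CPM in Atrx-cKO, and its log2 fold change was -0.28 ± 0.083 (SE, edgeR adjusted p = 0.992). *Csf1r*, the receptor for M-CSF, had 299, 295 and 289 CPM in control and 250, 235 and 267 CPM in Atrx-cKO, with a log2 fold change of -0.23 ± 0.084 (SE, edgeR adjusted p = 0.992). These were the only 2 of the 18 whose groups did not overlap, and in both the Atrx-cKO libraries were lower, as in 4.01% of all tested genes, while 4.3% of all had the opposite separation. Of the signals made by stromal and osteoblast-lineage cells, *Tnfsf11* (RANKL) had a log2 fold change of -0.25 ± 0.20 (SE), *Tnfrsf11b* (OPG, its decoy receptor) 0.26 ± 0.26 (SE) and *Csf1* (M-CSF) 0.032 ± 0.074 (SE), and none passed in edgeR (adjusted p = 0.992, 0.992 and 0.994). *Tnfrsf11b* had 24.4, 28.8 and 23.7 CPM in control and 19.7, 44.0 and 28.5 CPM in Atrx-cKO replicates 1, 2 and 3. Both its highest and its lowest library were thus Atrx-cKO.

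The remaining V-ATPase subunits include ones that every cell uses and isoforms limited to some tissues. Of 21 listed, 20 were tested, 18 were below 0 and the median log2 fold change was -0.10, or 17 and -0.067 without control replicate 3, and none passed an adjusted p of 0.05 in edgeR. *Atp6v0a4*, the a4 isoform of kidney, was the only 1 of the 20 whose groups did not overlap, a share close to the 4.01% of all tested genes, on 23, 40 and 26 counts in control and 12, 3 and 12 counts in Atrx-cKO (log2 fold change -1.73 ± 0.53, SE, edgeR adjusted p = 0.992). The other lysosomal cathepsins had 4 of 8 genes below 0 with a median of 0.015, and the other CLC exchangers 2 of 4 with a median of 0.019, and in neither list did a gene pass an adjusted p of 0.05 in edgeR.

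**Figure D5:**
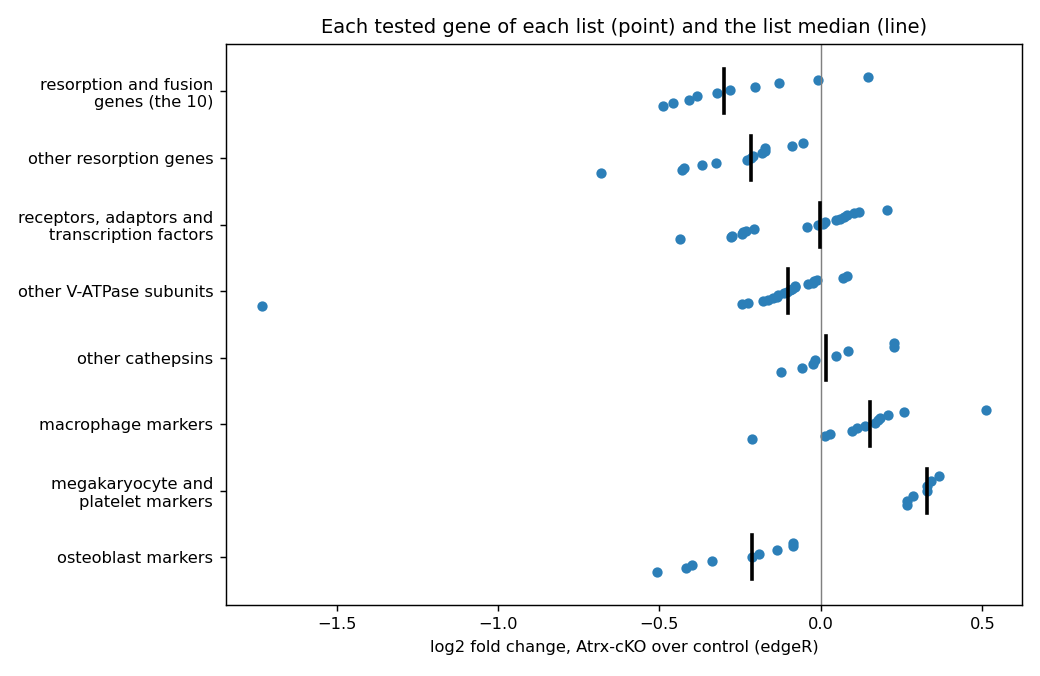
Log2 fold change of each tested gene (points) and the median (line) for the 10 resorption and fusion genes and 7 other gene lists. The medians are -0.30 for the 10 genes, -0.22 for the other resorption genes, -0.0020 for receptors, adaptors and transcription factors, -0.10 for other V-ATPase subunits, 0.015 for other cathepsins, 0.15 for macrophage, 0.33 for megakaryocyte and -0.21 for osteoblast markers.

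Markers of the other cells of a tibia were set beside these values, and no gene of any of these lists passed an adjusted p of 0.05 in edgeR. Macrophage markers, the nearest relatives of osteoclasts, were above 0 in 11 of 12 genes (median log2 fold change 0.15) and summed to 1051 to 1299 CPM in control and 1173 to 1350 CPM in Atrx-cKO. Osteoblast markers were below 0 in 9 of 9 genes (median -0.21). Their sums were 111056, 188003 and 169484 CPM in control replicates 1, 2 and 3 and 117386 to 121378 CPM in Atrx-cKO. Control replicate 1 thus lay below every Atrx-cKO library, and the list medians were not computed without it. Neutrophil, erythroid and B cell markers were above 0 in 8 of 8, 6 of 6 and 6 of 6 genes, with medians of 0.21, 0.12 and 0.20. Erythroid sums were 5253, 2076 and 2578 CPM in control replicates 1, 2 and 3 and 3207 to 4220 CPM in Atrx-cKO. Chondrocyte, osteocyte and adipocyte markers were below 0 in 3 of 6, 3 of 5 and 3 of 5 genes, with medians of 0.043, -0.082 and -0.20. Muscle markers had 9 of 10 genes below 0 and a median of -1.54, on sums of 910 to 13366 CPM in control and 785 to 2732 CPM in Atrx-cKO. Without control replicate 3 the medians were 0.055 for macrophage, -0.25 for osteoblast, 0.143 for megakaryocyte, 0.068 for neutrophil and 0.174 for B cell markers. Those of muscle (0.63), erythroid (-0.042), osteocyte (0.021) and adipocyte (0.13) markers and of the other cathepsins (-0.020) changed sign, and that of chondrocyte markers was 0.295. The part of these cell types in the values of the 10 genes was not tested.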

How the data were processed

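Tibia RNA from 3 Atrx-cKO and 3 control mice was extracted, selected for polyadenylated RNA and sequenced as paired ends by GENEWIZ. The authors deposited raw read counts per Ensembl gene, without normalization, in the form htseq-count writes. The submitters' processing notes name GRCm38 and DESeq2, and the aligner and counting program are not given in the sources used here. Reads on no feature (51.6% to 52.4% of each file) and the other summary rows entered neither library sizes nor tests.

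Genes were named and measured (union exon length) with GENCODE M21 on GRCm38, which matched 55141 of 55401 identifiers, and no library was left out. Counts were fitted with edgeR 4.0.16 (quasi-likelihood F test after TMM and filterByExpr, genotype as the 1 term) under R 4.3.3, with Benjamini-Hochberg adjustment over all 20636 genes kept. The standard error is the fitted log2 coefficient over the square root of the F statistic. DESeq2 1.42.0, RLE and upper quartile scaling, no filter, at least 10 counts in every sample, a replicate block and fits without each library were the alternatives, and DESeq2 without each library and the gene lists without control replicate 3 were added after the data were seen. Ratios were compared by exact permutation tests. On simulated counts for 20636 genes with 200 changed, edgeR recovered 57 genes changed 2-fold and 83 changed 4-fold with 11 false calls, and DESeq2 recovered 72 and 90 with 54 false calls. Every changed gene was changed 2-fold or 4-fold, so the simulation cannot show whether smaller differences, like those of the 10 genes, would be found.

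The 10 genes, the other lists and the tests were chosen with earlier results of these data known. By rule the text names the 10 genes, listed osteoclast and V-ATPase genes whose groups did not overlap, the V0 isoforms, the 3 signals and the 10 genes with the most similar pattern. *6530413G14Rik*, *Gm15200*, *Mmp14*, *Itga2b*, *Itgav*, *Gp1bb*, *Slc9b2*, *Car2*, *Jdp2*, *Nfkb1*, *Calcr* and *Src* were named after their values were seen.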

Additional observations from a re-analysis of the deposited data

How the results depend on the processing

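None of the 10 genes passed an adjusted p of 0.05 under any of the 12 planned or 6 added settings (0 in each). The lowest adjusted p was 0.0968, for *Itgb3* in DESeq2 without control replicate 1. At an unadjusted p under 0.05, 1 of the 10 genes was lower in edgeR (2.05% of all genes tested in that fit), 4 without a filter (2.59%), 4 in DESeq2's Wald test (1.69%) and 5 with the replicate block (2.72%). Fits without 1 library gave 0 to 5 such genes in edgeR and 0 to 6 in DESeq2, the latter chosen after seeing the data. In DESeq2 the counts were 0 when Atrx-cKO replicate 1 was dropped (1.47% of all genes), 5 for Atrx-cKO replicate 3 (1.61%), 6 for control replicate 2 (1.5%) and 0 for control replicate 3 (0.896%). In edgeR they were 0 (1.64%), 4 (1.93%), 5 (2.3%) and 0 (1.4%) for these 4 libraries in turn. Without Atrx-cKO replicate 2 the count was 1 in edgeR (1.76%) and 1 in DESeq2 (1.41%). Without control replicate 1 it was 1 in each, where 5.59% of all genes were lower in edgeR and 3.43% in DESeq2. The median log2 fold change of the 10 genes ran from -0.42 to -0.17. Of 180 values of single genes under these settings, 172 kept their direction. The 8 that reversed were *Ostm1*, whose edgeR values ran from -0.057 to 0.022 over fits without 1 library, with 0.022, 0.0050 and 0.014 without Atrx-cKO replicate 2, control replicate 1 and control replicate 3 and 0.027, 0.0070 and 0.018 in DESeq2 without the same libraries, and *Itgb3*, at -0.015 without control replicate 2 in both tools (edgeR range over such fits -0.015 to 0.351). Leaving out 1 library moved the log2 difference of the *Ctsk* to *Acp5* ratio between -0.092 and 0.031, of *Atp6v0d2* to *Atp6v0d1* between -0.455 and -0.074, and of *Tcirg1* to its relatives between -0.18 and -0.073. Over all tested genes, 3 passed an adjusted p of 0.05 in edgeR, 10 without a filter, 1 with at least 10 counts in every sample, 37 in DESeq2, 0 with the replicate block, and 0 to 5 without 1 library (0 when Atrx-cKO replicate 1, Atrx-cKO replicate 2 and control replicate 2 were each dropped, and 5 for control replicate 3). The deviations of libraries 1, 2 and 3 from their group means correlated between the groups at -0.029, 0.056 and -0.067. No source used here pairs mice by number, and these correlations cannot show whether any were paired. The causes of these moves were not tested. Each of the 10 genes had 404 counts or more in every library.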
